A study of Mus musculus with 14 samples.

Results

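The 10 genes followed here, by which intestinal tuft cells are known, are Pou2f3, Gfi1b, Dclk1, Trpm5, Sh2d6, Sucnr1, Vav1, Il25, Alox5 and Ptgs1. They were read in the H3K27ac and ONECUT2 profiles of mouse small intestinal organoids. Each H3K27ac region and each ONECUT2 site went to the nearest protein-coding gene span within 100 kb, and the members are those that went to these 10 genes of 21900. They are 28 of 55050 H3K27ac regions, at 8 of the 10 genes, and 6 of 7268 ONECUT2 sites, at 5 of the 10. Regions with any base within 2 kb of a gene's start were called promoter regions and the others distal, which gave 2 promoter and 26 distal regions. Trpm5 and Il25 had no region of their own. Regions may act on genes other than the nearest.

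The organoids were grown from the small intestine of 1 female Lgr5GFPDTR/+ mouse, whose allele places a fluorescent protein and the diphtheria toxin receptor at the stem cell gene Lgr5, and every library of both arms carries it. H3K27ac was profiled in 3 RANKL libraries and 3 control libraries by ChIPmentation, a chromatin immunoprecipitation in which a transposase adds the sequencing adapters. The RANKL arm first had 3 days with CHIR99021 (3 µM), which activates Wnt signalling, together with valproic acid (1.5 mM), which inhibits histone deacetylases. After 1 day in ENR medium, which supplies EGF, Noggin and an R-spondin, it was given RANKL at 100 ng/mL for 6 days. The control arm stayed in ENR medium, so each difference below is between the whole protocol and ENR medium, and the parts of RANKL, CHIR99021 and valproic acid cannot be told apart. Replicates were 3 independent differentiation experiments with this single line, and p-values measure the spread between those experiments. RANKL drives the differentiation of microfold (M) cells, and the study's title concerns ONECUT2 in that process and in enterocytes.

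Tuft cells are rare chemosensory cells of the gut epithelium. They sense succinate and other luminal cues through receptors and a taste-type cascade that ends in the cation channel TRPM5, and they release interleukin-25, leukotrienes and prostaglandins, which call on type 2 immune cells. The lineage depends on the transcription factor POU2F3. Acetylated lysine 27 of histone H3 (H3K27ac) is a mark of active enhancers and promoters. The libraries were made from whole organoids, so fewer cells of a type and less acetylation per cell cannot be told apart.

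Region totals were 5434172 to 9160267 reads per control library and 2745451 to 3902301 per RANKL library. Of 54765 regions that passed the filter on low counts, 35.9% were called by edgeR's quasi-likelihood test (adjusted p under 0.05), 14.8% as higher and 21.0% as lower with RANKL. Of 16000 genes, tested on the counts summed over their regions, 51.9% were called, 25.1% higher and 26.8% lower. All 8 markers of gut epithelium had regions, with a summed level of 1981 to 2152 CPM (reads scaled to the size of the library) in control libraries and 1929 to 2013 CPM in RANKL libraries.

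Summed over their regions, 5 of the 8 tuft cell genes with a region were higher with RANKL and 3 were lower. Dclk1 (2.53-fold), Gfi1b (2.08-fold), Alox5 (1.67-fold), Sh2d6 (1.63-fold) and Ptgs1 (1.31-fold) rose. Vav1 (1.46-fold), Pou2f3 (1.42-fold) and Sucnr1 (1.22-fold) fell. The median log2 fold over the 8 genes was 0.54, beside 0.01 over all genes. Of the 28 tuft cell regions 26 are distal, and over all genes the median was 0.27 for distal and -0.19 for promoter sums. The 3 RANKL libraries lay wholly on one side of the 3 control libraries at all 8, as they did at 57.3% of all genes. Sucnr1 and Ptgs1 lost their calls in some of the fits without 1 library, which are given with those genes.

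**Figure D1:**
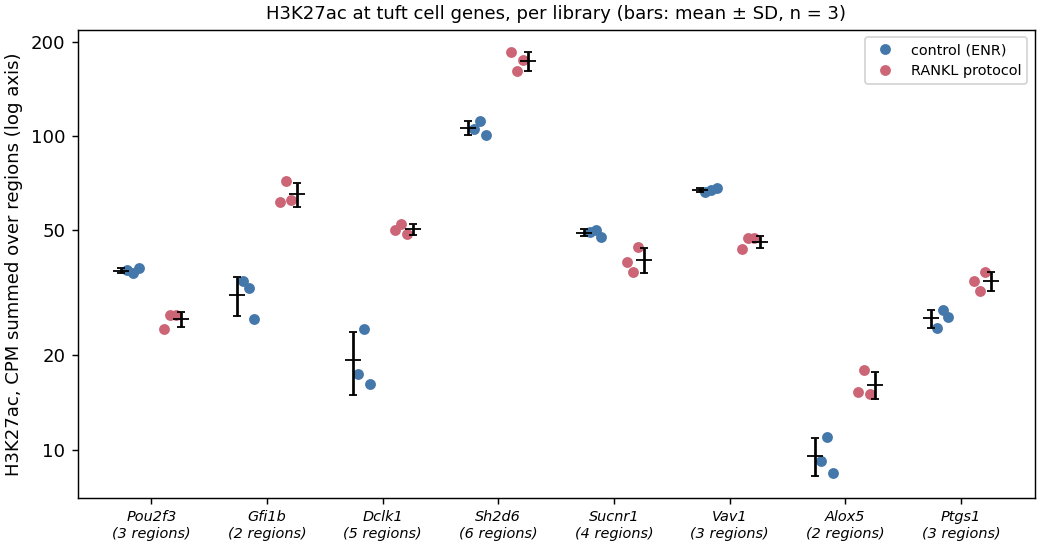
Summed H3K27ac level of each tuft cell gene with a region, in CPM on a log axis, in each of the 3 control and 3 RANKL libraries, with bars at each group's mean ± SD (n = 3). The groups do not overlap at any of the 8 genes, from Dclk1 at 16.2 to 24.3 CPM in control and 48.5 to 52.6 CPM with RANKL, to Sucnr1 at 47.7 to 50.2 and 36.9 to 44.1 CPM.

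Because every region is 2000 bp wide, levels of different genes were compared as the mean CPM per region. Such a mean can rest on 1 strong region, as at Vav1, where the control median over its 3 regions was 5.44 CPM. In control organoids the order was Vav1 (22.4 CPM), Sh2d6 (17.7), Gfi1b (15.6), Pou2f3 (12.4), Sucnr1 (12.3), Ptgs1 (8.74), Alox5 (4.77) and Dclk1 (3.87). The control libraries overlapped between the neighbours Sh2d6 and Gfi1b, Pou2f3 and Sucnr1, and Alox5 and Dclk1, so these pairs have no order beyond their spread. With RANKL the order became Gfi1b (32.6 CPM), Sh2d6 (28.9), Vav1 (15.3), Ptgs1 (11.5), Sucnr1 (10.1) and Dclk1 (10.1) at the same level, Pou2f3 (8.68) and Alox5 (8.05). With RANKL, Gfi1b and Sh2d6 overlapped, as did Ptgs1 and Sucnr1, Sucnr1 and Dclk1, and Pou2f3 and Alox5. Dclk1 left the last places and Vav1 the first.

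The transcription factor genes moved in opposite directions. Pou2f3, which encodes the POU-domain factor that tuft cells require, had 3 regions, all inside the gene. Their sum stood at 37.3, 36.5 and 37.9 CPM in control replicates 1 to 3 and at 24.3, 26.95 and 26.9 CPM in RANKL replicates 1 to 3. The log2 fold was -0.51 ± 0.13 (SE, adjusted p = 0.00103). The fall was called at 1 of the 3 regions, chr9:43149386-43151386 (mm10), which also holds an ONECUT2 site. There the libraries read 21.6, 19.3 and 21.9 CPM in control and 13.6, 8.45 and 10.9 CPM with RANKL, giving a log2 fold of -0.94 ± 0.19 (adjusted p = 8.59e-06). All control libraries of that region lay above all RANKL libraries. The region over the higher-coordinate end of the gene, chr9:43204627-43206627, had a mean of 8.35 ± 1.22 CPM in control and 6.84 ± 1.88 CPM with RANKL (SD, n = 3; adjusted p = 0.460). The groups of that region overlapped, as did those of the third, chr9:43143598-43145598 (log2 fold -0.45, adjusted p = 0.244). Regions at either end of Pou2f3 and Il25 were taken as promoter regions, and for the other 8 genes the starts came from RefSeq.

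Gfi1b encodes a zinc finger repressor that is enriched in tuft cells and is also known from blood cell development. Its summed level was 34.6, 32.8 and 26.1 CPM in control and 61.5, 71.9 and 62.5 CPM with RANKL, giving a log2 fold of 1.06 ± 0.11 (adjusted p = 1.19e-12). The 2 regions behind this sum did opposite things. The region 0.823 kb beyond the 3′ end of the gene, chr2:28606627-28608627, went from 4.44, 4.73 and 4.50 CPM to 38.9, 42.0 and 36.4 CPM. That is 8.47-fold, or a log2 fold of 3.08 ± 0.19 (adjusted p = 2.37e-49), and it was the largest change among the 28 regions. The next gene, Gtf3c5, is 23.3 kb from it. The region 7.35 kb upstream of the Gfi1b start, chr2:28629335-28631335, has Tsc1 as the next gene, 9.66 kb away. This upstream region stood at 30.3, 27.5 and 21.8 CPM in control and 17.1, 23.2 and 18.6 CPM with RANKL. Its groups overlapped, and its log2 fold was -0.43 ± 0.15 (adjusted p = 0.0167). This call ended without control replicate 1 (adjusted p = 0.124), control replicate 2 (0.0944), RANKL replicate 1 (0.0764) or RANKL replicate 3 (0.0783). It also ended with DESeq2 (0.0902), by library size only (0.0766) and with the signal trend removed (0.373), a fit that takes out the smooth dependence of each library's deviation on signal level. Gfi1b was the one tuft cell gene with both a higher and a lower region, which 18.2% of all genes with at least 2 tested regions had.

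Dclk1, the microtubule-associated kinase gene by which tuft cells are most often recognised, rose most as a gene. Its 5 regions summed to 17.5, 24.3 and 16.2 CPM in control and 50.1, 52.6 and 48.5 CPM with RANKL, giving a log2 fold of 1.34 ± 0.14 (adjusted p = 2.78e-13). Dclk1 has 2 listed starts, far apart on chromosome 3, and was the only one of these genes with an acetylated region over a listed start. Both starts are shown because the region over the first and the region nearest to the second each rose. Each sequence runs from 250 bases before to 50 bases after the start on the plus strand (RefSeq, GRCm38.p6, the assembly of mm10). Capitals mark the letters ATCGAT, which read the same on both strands.
Dclk1, first start, chr3:55242114-55242413: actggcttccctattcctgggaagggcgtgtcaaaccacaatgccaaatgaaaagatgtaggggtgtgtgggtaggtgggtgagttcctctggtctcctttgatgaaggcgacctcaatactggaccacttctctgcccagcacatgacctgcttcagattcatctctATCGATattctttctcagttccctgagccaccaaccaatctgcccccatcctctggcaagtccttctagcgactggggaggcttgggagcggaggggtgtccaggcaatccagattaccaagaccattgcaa
Dclk1, second start, chr3:55461478-55461777: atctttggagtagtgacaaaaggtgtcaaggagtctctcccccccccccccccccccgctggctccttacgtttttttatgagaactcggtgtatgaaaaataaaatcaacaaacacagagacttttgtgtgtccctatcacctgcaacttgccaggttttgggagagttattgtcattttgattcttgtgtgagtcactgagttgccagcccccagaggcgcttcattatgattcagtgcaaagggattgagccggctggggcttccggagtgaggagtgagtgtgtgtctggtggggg

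The letters ATCGAT, one of the forms of the site that ONECUT factors bind, begin 82 bases before the first start, and 0.856% of 21263 mouse promoter windows of that length hold them. The more common form ATTGAT, searched on both strands, was in neither window, and 6.54% of windows hold it. A match is a description of the sequence and not a bound site, and no listed ONECUT2 site overlaps these windows.

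The region over the first Dclk1 start, chr3:55240918-55242918, read 3.09, 3.19 and 3.38 CPM in control and 11.1, 9.96 and 8.68 CPM with RANKL. This was 3.04-fold (log2 fold 1.60 ± 0.33, adjusted p = 1.06e-05), with no overlap between groups. The region 9.46 kb downstream of the second start, chr3:55471191-55473191, went from 2.32, 4.73 and 2.81 CPM to 11.8, 14.5 and 14.2 CPM, 3.90-fold (1.96 ± 0.29, adjusted p = 2.62e-10). The region 14.3 kb upstream of the gene, chr3:55226025-55228025, holds an ONECUT2 site and went from 5.80, 8.36 and 6.00 CPM to 17.1, 12.7 and 12.5 CPM (1.02 ± 0.24, adjusted p = 0.000151). It is almost as near to the next gene, Sohlh2, which is 16.1 kb away. The groups were apart at each of these 3 regions. The other 2, inside the gene at chr3:55347352-55349352 and chr3:55519691-55521691, were not called (log2 fold 0.22, adjusted p = 0.708, and 0.53, adjusted p = 0.390). A rise was thus called at 3 of the 5 Dclk1 regions. The 2 uncalled ones were weak, with means of 4.07 and 2.87 CPM over all libraries. Their SE was wide (0.40 and 0.46), so a rise there is neither shown nor excluded.

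Sh2d6 and Vav1 encode signalling proteins with SH2 domains, SH2D6 an adaptor and VAV1 a protein that leukocytes also use. Sh2d6 had the most regions, 6, and the highest summed level of the 8 genes. It went from 105, 112 and 101 CPM in control to 186, 161 and 174 CPM with RANKL, giving a log2 fold of 0.70 ± 0.07 (adjusted p = 1.03e-13). Its rise was spread over 4 of the 6 regions, with log2 folds of 0.61 to 0.95. The strongest region, chr6:72511613-72513613, lies 28 bases beyond the gene's 3′ end and went from 39.2 ± 2.97 to 61.2 ± 7.59 CPM (SD over 3 libraries; log2 fold 0.64 ± 0.12, adjusted p = 4.30e-07). The region with the smallest p after it, chr6:72527607-72529607, lies inside the gene span but 7.57 kb upstream of the listed start. This region rose from 19.7 ± 3.29 to 34.5 ± 7.35 CPM (0.76 ± 0.14, adjusted p = 9.56e-07). The most distant one that rose, chr6:72492157-72494157, is 19.5 kb beyond the 3′ end and holds an ONECUT2 site at its edge (0.95 ± 0.22, adjusted p = 0.000138). Not called were the region 8.52 kb beyond the 3′ end (log2 fold 0.18, adjusted p = 0.571) and the one 32.2 kb beyond it (-0.42, adjusted p = 0.141). The latter was called lower without control replicate 3 (-0.61, adjusted p = 0.0414) or RANKL replicate 1 (-0.72, adjusted p = 0.0179).

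Vav1 fell as a gene, from 66.4, 67.3 and 68.3 CPM to 43.5, 47.2 and 47.2 CPM (log2 fold -0.55 ± 0.10, adjusted p = 4.91e-06). Most of its signal was in 1 region 2.54 kb upstream of the start, chr17:57274556-57276556. That region read 56.6, 56.2 and 61.9 CPM in control and 31.8, 28.7 and 30.4 CPM with RANKL, 1.92-fold lower (-0.94 ± 0.12, adjusted p = 1.44e-12). It was the strongest of all 28 regions in control organoids. The region inside Vav1, chr17:57289459-57291459, stood at 3.49 ± 0.72 CPM in control and 6.12 ± 2.59 CPM with RANKL, and its groups overlapped (log2 fold 0.82, adjusted p = 0.0710). It was called higher by library size only (0.92, adjusted p = 0.0457) and without RANKL replicate 1 (1.07, adjusted p = 0.0230). The last, 5.62 kb beyond the 3′ end with the macrophage gene Adgre1 as the next gene, was at -0.15 (adjusted p = 0.778).

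Of the sensing genes, Sucnr1, which encodes the succinate receptor, was the one with regions. Its 4 regions all lie downstream of the gene, 9.10 to 81.2 kb away, and none was at the start. They summed to 49.5, 50.2 and 47.7 CPM in control and 39.6, 36.9 and 44.1 CPM with RANKL, giving a log2 fold of -0.29 ± 0.11 (adjusted p = 0.0279). The groups did not overlap, but the call ended without control replicate 1 (adjusted p = 0.0530), control replicate 2 (0.0700), RANKL replicate 1 (0.0597) or RANKL replicate 2 (0.126). It ended too with DESeq2 (0.0813), with the signal trend removed (log2 fold -0.13, adjusted p = 0.357) and with regions within 10 kb only (0.306). Of the single regions, chr3:60103946-60105946 was called, at 14.2 ± 2.62 CPM in control and 9.37 ± 0.26 CPM with RANKL (SD, n = 3; -0.59 ± 0.22, adjusted p = 0.0244). It was not called without control replicate 3 (0.168), without RANKL replicate 3 (0.0692), by library size only (0.0737) or with DESeq2 (0.0787). The region nearest to the gene, chr3:60096663-60098663, was at -0.43 (adjusted p = 0.0554). It was called without RANKL replicate 3 (-0.73, adjusted p = 0.00523) and with the replicate as a block (-0.47, adjusted p = 0.0431). The remaining pair were at -0.03 (adjusted p = 0.957) and -0.45 (0.140).

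The promoter of Sucnr1 was the only one of the 9 listed windows, at 8 of these genes, with the octamer ATGCAAAT, the letters that POU factors such as POU2F3 bind. It is shown for that reason, from 250 bases before to 50 after the start on the plus strand, with the octamer in capitals.
Sucnr1, chr3:60081619-60081918: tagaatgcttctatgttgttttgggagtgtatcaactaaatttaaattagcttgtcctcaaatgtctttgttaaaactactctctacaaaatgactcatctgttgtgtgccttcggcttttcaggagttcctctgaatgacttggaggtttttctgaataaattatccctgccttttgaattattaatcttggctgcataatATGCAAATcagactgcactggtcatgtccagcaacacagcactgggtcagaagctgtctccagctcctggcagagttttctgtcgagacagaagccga

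The octamer begins 48 bases before the start, and 1.66% of 21263 promoter windows hold it on either strand. No H3K27ac region lay over this window, so the count data say nothing of acetylation there.

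Trpm5 encodes the cation channel at the end of the taste-type cascade. No region was nearest to it, but regions of its neighbours lay within 25 kb. The closest, 1.25 kb away and nearest to Tssc4, fell from 49.3 ± 4.22 to 35.8 ± 3.26 CPM (SD over 3 libraries; log2 fold -0.46 ± 0.12, adjusted p = 0.000799). A region 9.84 kb from Trpm5 on its other side, nearest to Kcnq1, rose from 42.7 ± 2.83 to 63.9 ± 2.46 CPM (0.57 ± 0.11, adjusted p = 4.65e-06). Of the 2 regions nearest to Cd81, the one 7.61 kb from Trpm5 was not called (0.06, adjusted p = 0.807) and the one 17.8 kb away fell (-0.54, adjusted p = 4.45e-05). The chromatin around Trpm5 thus held regions that rose and regions that fell.

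Il25 encodes the cytokine by which tuft cells activate group 2 innate lymphoid cells, and it had no region of its own either. The region 2.74 kb from it, nearest to Cmtm5, read 5.41, 6.71 and 8.63 CPM in control and 3.57, 4.23 and 4.58 CPM with RANKL (log2 fold -0.73, adjusted p = 0.0830). The groups were apart there but the difference was not called. The region 7.10 kb from Il25, nearest to Efs, rose from 5.61 ± 0.77 to 14.2 ± 0.68 CPM (SD, n = 3; 1.35 ± 0.25, adjusted p = 1.09e-06). For comparison, 73.4% of all protein-coding genes had a region and 53.4% had one at a promoter. By the same assignment 8 of these 10 genes had a region and 2 had one at a promoter.

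Both eicosanoid genes rose. Alox5, the 5-lipoxygenase gene of leukotriene synthesis, had 2 regions inside the gene. They summed to 9.22, 11.0 and 8.39 CPM in control and 15.3, 17.97 and 15.1 CPM with RANKL, giving a log2 fold of 0.74 ± 0.23 (adjusted p = 0.00488). The region chr6:116414530-116416530 read 4.44, 6.49 and 4.31 CPM in control and 9.64, 12.1 and 5.31 CPM with RANKL (0.76 ± 0.30, adjusted p = 0.0346). RANKL replicate 3 lay within the control range there. This call was lost without control replicate 1 (adjusted p = 0.109), control replicate 3 (0.117), RANKL replicate 1 (0.0917) or RANKL replicate 2 (log2 fold 0.47, adjusted p = 0.328), with DESeq2 (0.0814) and with the signal trend removed (0.115). The other region, chr6:116427431-116429431, was not called (0.35, adjusted p = 0.479).

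Ptgs1 encodes cyclooxygenase 1, which makes the precursor of prostaglandins. Its 3 regions summed to 24.4, 27.8 and 26.5 CPM in control and 34.5, 31.9 and 36.7 CPM with RANKL (log2 fold 0.39 ± 0.14, adjusted p = 0.0149). The call ended without control replicate 1 (adjusted p = 0.0597) and without RANKL replicate 3 (0.0856). None of the 3 regions was called alone. The strongest, chr2:36213099-36215099, lies 1.64 kb upstream of the gene span but 15.3 kb from the listed start, so it counted as distal. It holds an ONECUT2 site and stood at 18.4 ± 1.03 CPM in control and 19.1 ± 2.14 CPM with RANKL (0.06, adjusted p = 0.812). The weaker ones were at 0.54 (adjusted p = 0.212) and 0.64 (0.223).

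**Figure D2:**
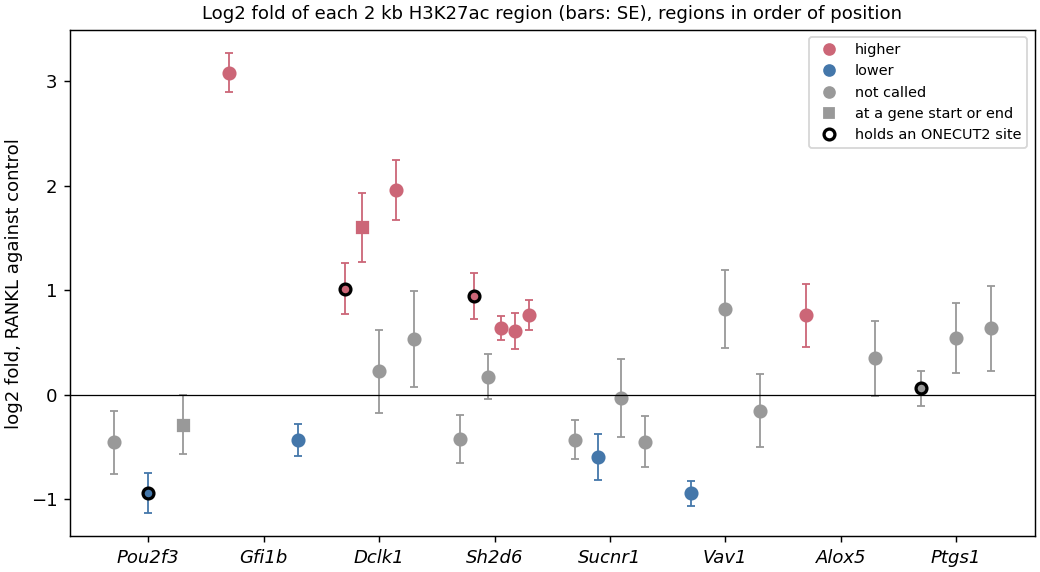
Log2 fold (RANKL minus control) of each of the 28 H3K27ac regions, by gene and in order of position, with bars of 1 SE. Red is called higher, blue called lower and grey not called, squares are promoter regions, and black outlines mark regions with an ONECUT2 site. Values run from -0.94 at Vav1 and Pou2f3 to 3.08 at Gfi1b.

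Counted by region, 9 of the 28 were higher with RANKL, 4 were lower and 15 were not called, beside 14.8% higher and 21.0% lower among all regions. Of the 26 distal ones, 8 were higher and 4 lower, beside 17.0% and 14.2% of all distal regions. The median log2 fold of the 28 was 0.29, against 0.06 over all regions and 0.13 over all distal regions. At 13 of the 28 the libraries of the arms did not overlap, as at 44.9% of all regions. Of the 13 regions overlapping the span of their gene, 5 were higher and 1 was lower. Of the 15 outside, 4 were higher and 3 were lower. The same split was not counted over all regions, so no reading is drawn from it. By library size only 10 of the 28 were higher and 2 lower, and with DESeq2 8 and 2. The counts over all regions moved as well. By library size only more of all regions were higher and fewer were lower than in the main fit. With DESeq2 fewer were called in each direction. The shares of 14.8% and 21.0% are those of the main fit, so the counts from these alternatives cannot be set beside them.

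**Figure D3:**
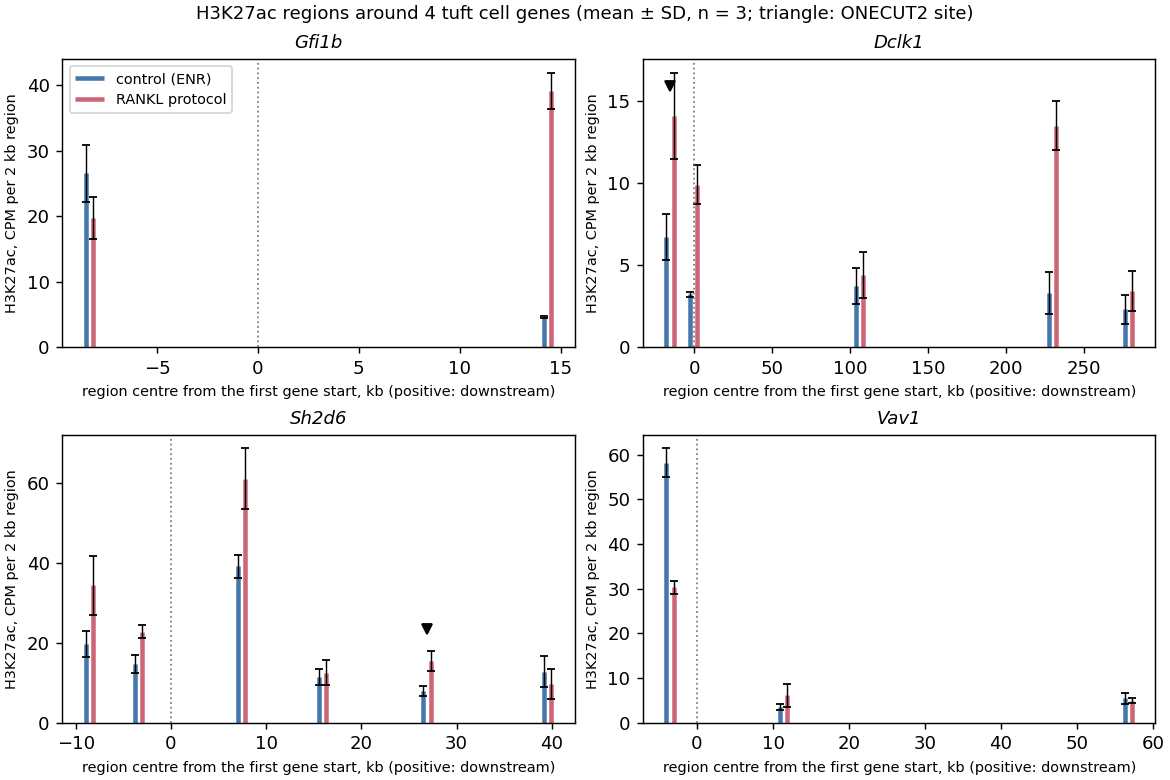
H3K27ac level (mean ± SD, n = 3, in CPM) of each region of Gfi1b, Dclk1, Sh2d6 and Vav1 against the distance of its centre from the gene's first start in kb (positive is downstream), in control (blue) and RANKL (red) organoids, with triangles over regions that hold an ONECUT2 site. The region 14.4 kb downstream of the Gfi1b start stands at 39.1 CPM with RANKL and 4.56 CPM in control, and the region upstream of Vav1 at 30.3 and 58.2 CPM.

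Promoter and distal regions were then summed apart and tested as separate rows. Over all genes, 36.7% of distal sums were higher and 12.0% lower, while 11.2% of promoter sums were higher and 39.4% lower. The distal sums of the tuft cell genes were higher at 5 and lower at 3 of 8, with a median log2 fold of 0.55 beside 0.27 over all genes. Only Dclk1 and Pou2f3 had a promoter region, so at the other genes the distal sum holds the same counts as the gene sum above. The distal call of Sucnr1 was lost in 8 alternatives and that of Ptgs1 in 2. Of the 2 promoter sums, that of Dclk1 rose (1.76 ± 0.34, SE, adjusted p = 3.49e-06) and that of Pou2f3 was not called (-0.13 ± 0.28, adjusted p = 0.733). The difference between the distal and the promoter change of the same gene was tested with limma, which called 47.6% of 7249 genes. Distal minus promoter was -0.39 ± 0.35 at Dclk1 (adjusted p = 0.365) and -0.48 ± 0.33 at Pou2f3 (adjusted p = 0.237), beside a median of 0.38 over all genes. Neither was called.

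Since regions of a gene could differ from one another, each region was also tested against the other regions of its gene with edgeR's test for differential usage. This test was added after the values had been seen. It called 25.2% of 41249 regions and 6 of the 28. Each value below is the region's log2 fold minus that of its gene as a whole. At Gfi1b the region beyond the 3′ end rose more than the gene as a whole (log2 difference 2.16, adjusted p = 7.42e-23) and the upstream region less (-1.35, adjusted p = 2.94e-15), which with 2 regions is a single contrast seen from both sides. At Vav1 the region inside the gene stood above the gene as a whole (1.52, adjusted p = 0.000506). At Sh2d6 the farthest region stood below the gene as a whole (-0.98, adjusted p = 0.000321). At Dclk1 the region by the second start was above the gene as a whole (0.74, adjusted p = 0.0445). This call ended without control replicate 1 (adjusted p = 0.148), control replicate 3 (0.0748), RANKL replicate 2 (0.1000) or RANKL replicate 3 (0.171). The Dclk1 region chr3:55347352-55349352 was below the gene as a whole (-1.002, adjusted p = 0.0466). It lost its call without control replicate 1 (0.190), control replicate 2 (0.0833), RANKL replicate 1 (0.129) or RANKL replicate 3 (0.148), by library size only (0.0510) and with the replicate as a block (0.0649). No region of Pou2f3, Sucnr1, Alox5 or Ptgs1 was called in this test.

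ONECUT2 sites were taken from the authors' deposited table, which lists 7261 sites as higher with RANKL and 7 as lower and holds no values per library. The highest FDR in the authors' deposited table is 0.0496, so sites without a called difference are absent from it. All 6 sites at the tuft cell genes are listed as higher in the authors' deposited table. A site was assigned to 20.7% of all protein-coding genes and to 26.7% of those with a region, and to 5 of these 10. The site inside Pou2f3, chr9:43150263-43150663, is the strongest, with 47.95 normalised reads in control and 116.4 with RANKL in the authors' deposited table (log2 fold 1.26, FDR 1.66e-07). Its control level is at percentile 96.9 of all sites in the authors' deposited table. The site was thus among the listed sites most occupied without RANKL. The H3K27ac region around that site fell 1.92-fold while ONECUT2 binding was listed as higher.

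The remaining sites were listed at 3.26 to 7.22 normalised reads in control in the authors' deposited table. The site 2.17 kb upstream of the Ptgs1 span, chr2:36214173-36214573, went from 4.25 to 24.7 normalised reads in the authors' deposited table (log2 fold 2.37, FDR 7.73e-06). It lies within a region whose H3K27ac was not called. The site upstream of Dclk1, chr3:55227600-55228000, went from 3.26 to 18.8 in the authors' deposited table (2.32, FDR 4.90e-05), within a region that rose. A second Dclk1 site, chr3:55259873-55260273, lies inside the gene with no H3K27ac region and is listed at 4.39 and 14.5 in the authors' deposited table (1.62, FDR 0.00338). The site at Sh2d6, chr6:72494086-72494486, overlaps the edge of a rising region by 72 bases and is listed at 5.05 and 14.1 in the authors' deposited table (1.34, FDR 0.0122). That of Sucnr1, chr3:60103234-60103634, is in no region and is listed at 7.22 and 16.8 in the authors' deposited table (1.12, FDR 0.0204). The median log2 fold of the 6 sites was 1.48, below the 1.86 of all sites in the authors' deposited table. Of the 6 sites, 4 overlapped an H3K27ac region, as did 40.6% of all sites. Of those 4 regions 2 rose, 1 fell and 1 was not called, while of all 2925 tested regions with a site 662 were higher and 769 lower.

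Wider lists of the same biology were counted beside the 10 genes. Over all genes 25.1% were higher and 26.8% lower, and each list's counts stand beside those shares. Of 11 further transcription factors and cofactors, 8 were tested, 1 was higher and 5 were lower (median log2 fold -0.27). Spib, a factor that tuft and M cells share, rose from 8.98 ± 4.37 to 42.8 ± 7.67 CPM (SD over 3 libraries; log2 fold 2.17). Ascl2 (-0.86) and Sox9 (-0.32), factors of stem and progenitor cells, and Sox4 (-0.29), a factor known to promote tuft cell formation, fell. The count of lower genes was 3 with DESeq2, 3 without control replicate 3 and 2 with regions within 10 kb, where Sox9 turned to 0.01. In the taste-type cascade, 10 of 14 genes were tested, 1 was higher and 2 were lower (median 0.13). Gnat3, the gustducin gene, was called higher (0.72 ± 0.16, SE, adjusted p = 0.000182) although RANKL replicate 2 lay within the control range. The calcium release channel gene Itpr3 (-0.42) and the cation channel gene Trpm4 (-0.33) fell.

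Of the 10 further eicosanoid genes, 8 were tested, 2 were higher and 3 were lower (median -0.25). Both that rose belong to prostaglandin synthesis: the prostaglandin E synthase gene Ptges went from 34.9 ± 2.56 to 93.3 ± 9.28 CPM (SD over 3 libraries; log2 fold 1.41) and the cyclooxygenase 2 gene Ptgs2 from 27.4 ± 3.61 to 50.7 ± 8.65 CPM (0.87). Those that fell were the lipoxygenase gene Alox12 (-1.11, but -0.20 and not called with regions within 10 kb) and the leukotriene genes Lta4h (-0.35, and -0.67 within 10 kb) and Ltc4s (-0.44). The call of Ltc4s ended without RANKL replicate 2 (adjusted p = 0.0605) or with the signal trend removed (0.0523). In the type 2 cytokine circuit 7 of 10 were tested, 1 was higher and 0 were lower (median 0.11). The higher one was the interleukin-4 receptor gene Il4ra (0.69), and the count was 2 without control replicate 2, without RANKL replicate 1 or within 10 kb and 3 with the signal trend removed. Of 26 genes for tuft cell structure and signalling adaptors, 21 were tested, 8 were higher and 3 were lower (median 0.14). Kctd12 (1.70), the phospholipase gene Plcg2 (1.33) and the adaptor gene Fyb (1.23) led the rise. The actin-bundling gene Espn (-0.48), Ly6g6d (-0.69) and the keratin gene Krt18 (-0.20) fell. The call of Krt18 was lost with DESeq2 (adjusted p = 0.102), and its log2 fold was -0.45 within 10 kb and -0.31 with the signal trend removed.

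Several tuft cell genes are also active in other cell types, so markers of those were read in the same libraries. Their counts stand beside the same 25.1% higher and 26.8% lower over all genes. The members summed to 332.2 to 361.9 CPM in control libraries and 446.5 to 455.1 CPM in RANKL libraries. M cell markers, 8 of 10 higher and 0 lower, summed to 392.3 to 416.3 and 810.6 to 883.0 CPM. Markers of neurons and neuroendocrine cells, which also use Dclk1, were higher at 5 of 6 tested genes and lower at 0, with a sum of 217.1 to 247.0 and 495.4 to 503.5 CPM. The synaptotagmin gene Syt1 went from 78.3 ± 11.2 to 286 ± 7.01 CPM (SD, n = 3), and 2 of the list were higher with regions within 10 kb.

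Leukocyte markers, of cells that also use Vav1, Alox5 and Gfi1b, were higher at 6 and lower at 1 of 10 tested genes, and summed to 189.7 to 213.9 CPM in control and 315.8 to 353.7 CPM with RANKL. Kit held the largest share, at 55.3 ± 4.56 and 140 ± 11.7 CPM (SD, n = 3). The myeloid and pan-leukocyte markers Cd52 (2.42-fold), Adgre1 (2.30-fold), Csf1r (1.89-fold), Ncf1 (1.77-fold) and Cd14 (1.49-fold) were the others that rose. The 1 lower marker, Itgax, was not called without RANKL replicate 2. Of the 20 listed markers 10 had no region, among them the lymphocyte, macrophage, neutrophil and mast cell markers Cd3e, Cd3g, Cd3d, Cd79a, Ms4a1, Cd68, Lyz2, S100a8 and Fcer1a. Epithelial markers were higher at 2 of 8 (1 within 10 kb) and lower at 5. The part of these markers' cells in the changes at the tuft cell genes was not tested.

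**Figure D4:**
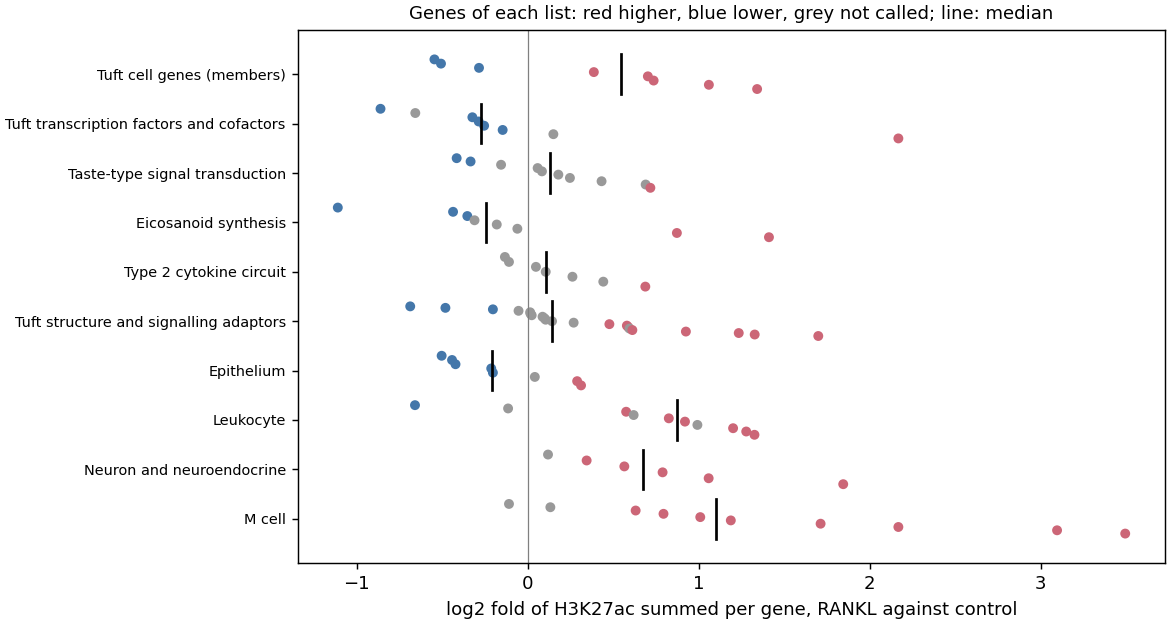
Log2 fold (RANKL minus control) of every tested gene of the 10 tuft cell genes, the 5 wider tuft cell lists and the 4 marker lists, 1 point per gene (red called higher, blue called lower, grey not called), with a line at each list's median. Medians run from -0.27 for the transcription factors to 1.10 for the M cell markers, with the tuft cell genes at 0.54.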

How the data were processed

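The authors deposited raw H3K27ac read counts for 55050 regions of 2000 bp in 6 libraries, and a DiffBind comparison of ONECUT2 on mm10, per the submitters' processing notes. Per the file headers, the ONECUT2 table gives mean log2 reads per arm and a log2 fold, and a p-value and FDR per site. No source used here names the aligner or peak caller. Input libraries were not analysed here.

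The test was the quasi-likelihood test of edgeR 4.0.16 in R 4.3.3 (TMM, filterByExpr, Benjamini-Hochberg adjusted p under 0.05), over all regions and over sums per gene, and distal against promoter change with limma 3.58.1 (prior count 1). CPM uses TMM-scaled library sizes, computed separately for regions and sums. Gene spans, starts and promoters came from RefSeq tables of GRCm38.p6; genome coordinates of regions and sites are as deposited. The scripts were tested on simulated data. Alternatives were DESeq2 1.42.0, library size only, no filter, the signal trend removed, other windows, a replicate block and leaving out each library. The labels' descriptions give each library of both arms an experiment number, which pairs them, although deviations of same-numbered libraries correlated at only 0.014, -0.026 and -0.0067. Libraries of 1 arm differed by more than sampling noise (chi-square per degree of freedom 1.80 to 2.06), so none was counted as a repeat.

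The members and lists were chosen with earlier results of these data known. All 10 members were named, and of each wider list up to 3 called genes per direction with the smallest p.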

Additional observations from a re-analysis of the deposited data

How the results depend on the processing

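Pou2f3, Gfi1b, Dclk1, Sh2d6, Vav1 and Alox5 kept their direction and call as genes in all 12 alternatives, Ptgs1 in 10 and Sucnr1 in 5. Without 1 library each, 4 to 5 genes were higher and 2 to 3 lower, and 8 to 9 regions were higher and 3 to 4 lower. The 4 lower regions became 2 by library size only and 2 with DESeq2. Only 1 member promoter sum was higher, but 3 were when regions at either gene end counted as promoter (chosen after the values were seen), which turned the distal log2 fold of Gfi1b to -0.28. Within 10 kb, 3 of the 6 ONECUT2 sites remained, 2 of them in an H3K27ac region, and Sox9 turned to 0.014. The other signs that turned belonged to uncalled values, with these log2 folds over the fits without 1 library: Dclk1 chr3:55347352-55349352 (-0.066 to 0.37, and -0.074 with the signal trend removed), Sh2d6 8.52 kb beyond the gene (-0.049 to 0.35), Sucnr1 chr3:60111450-60113450 (-0.30 to 0.29, through 0.038, and 0.058 by library size only), Vav1 5.62 kb beyond the gene (-0.33 to 0.0074), Alox5 chr6:116427431-116429431 (-0.051 to 0.52), Ptgs1 upstream of the gene (-0.016 to 0.14) and the Pou2f3 promoter sum (-0.32 to 0.033). The replicate block called 1 more Sucnr1 region (-0.47, adjusted p = 0.0431). It ended the call of 1 Dclk1 region against its gene as a whole (-0.98) and changed no other call at the tuft cell genes. In the eicosanoid list it called 4 genes lower, beside 3 in the main fit. The cause of these shifts was not tested. Depth in the RANKL arm, 2745451 reads at the lowest, limits what can be called at regions of a few CPM.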
